A study of Mus musculus with 10 samples.

Results

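The genes described here are *Pecam1*, *Cdh5*, *Kdr*, *Tek*, *Eng*, *Vwf*, *Cd34*, *Nrp1*, *Vegfa* and *Vegfc*, which mark blood vessel endothelium or belong to its growth factor pathways. They were taken by name, and all 10 were found among the 770 gene probes of a mouse NanoString panel, PanCancer Immune Profiling, in which each bound molecule is counted by its barcode. The panel was measured in 10 tumors of YUMMER1.7 cells, a Braf-mutant mouse melanoma line. Of these, 5 grew in wild-type (WT) mice, with replicate numbers 2 to 6, and 5 in Siah2-/- (KO) mice, numbered 1, 2, 3, 5 and 6. The ubiquitin ligase Siah2 was deleted throughout the host and not in a chosen cell type, and the injected cells were the same in both groups. According to the sample labels the tumors were taken on day 11 and 100 ng of RNA was used per assay. The design text of the series gives other cells (Yumm1.5), other mice (lacking Rnf5) and day 10. The paper also places its NanoString measurement at 10 days. The sample labels were followed, and the day stays uncertain. The labels give no age, sex or batch for single tumors, and do not state that each tumor came from its own mouse, so the p-values measure the spread between these samples.

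Endothelial cells line blood vessels and are joined to each other by adhesion proteins of their junctions. Their growth is steered by secreted factors. VEGF-A, from hypoxic or inflamed tissue, acts through the receptor VEGFR2 with neuropilin-1 as co-receptor, VEGF-C acts mainly on lymphatic vessels, and the angiopoietins act on the receptor Tie2. Several of these genes are not restricted to endothelium, since leukocytes carry CD31 and neuropilin-1, platelets carry von Willebrand factor, and tumor cells and macrophages make VEGF-A.

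Values are normalized counts, that is, background-subtracted counts scaled to 20 reference genes in each tumor. Every probe has its own efficiency, so levels were compared between tumors and not between genes. The counts before scaling summed to between 443504 and 578695 per WT tumor and to between 382885 and 581617 per KO tumor. In 0 of 10 tumors did any of the 10 genes lie at or below the highest negative control probe, which reached between 2.31 and 15.8 on the scale of the genes. The panel has no probe for *Siah2*, so the genotype could not be checked in these values. Whole tumors were measured, and fewer endothelial cells cannot be told apart from less RNA per cell.

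In Siah2 KO tumors, 6 of the 10 genes differed from WT tumors at an adjusted p under 0.05 (limma on log2(value + 1), Benjamini-Hochberg over 770 probes). *Pecam1* and *Vegfa* were higher, and *Cdh5*, *Vwf*, *Nrp1* and *Vegfc* were lower, while *Kdr*, *Tek*, *Eng* and *Cd34* did not pass. Over all probes 41.0% passed, with 31.3% higher and 9.74% lower in KO tumors, against 20% higher and 40% lower among the 10 genes. As the 10 genes were chosen with earlier results of these data known, these shares are a description and no test. The median log2 difference, KO minus WT, was -0.38 over the 10 genes and 0.24 over all probes. The groups did not overlap for 3 of the 10 genes, *Pecam1*, *Vegfa* and *Cdh5*, and for 31.6% of all probes. A two-sided exact permutation test over the 252 divisions of the tumors stands beside limma, and the smallest p it can give is 0.0079.

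**Figure D1:**
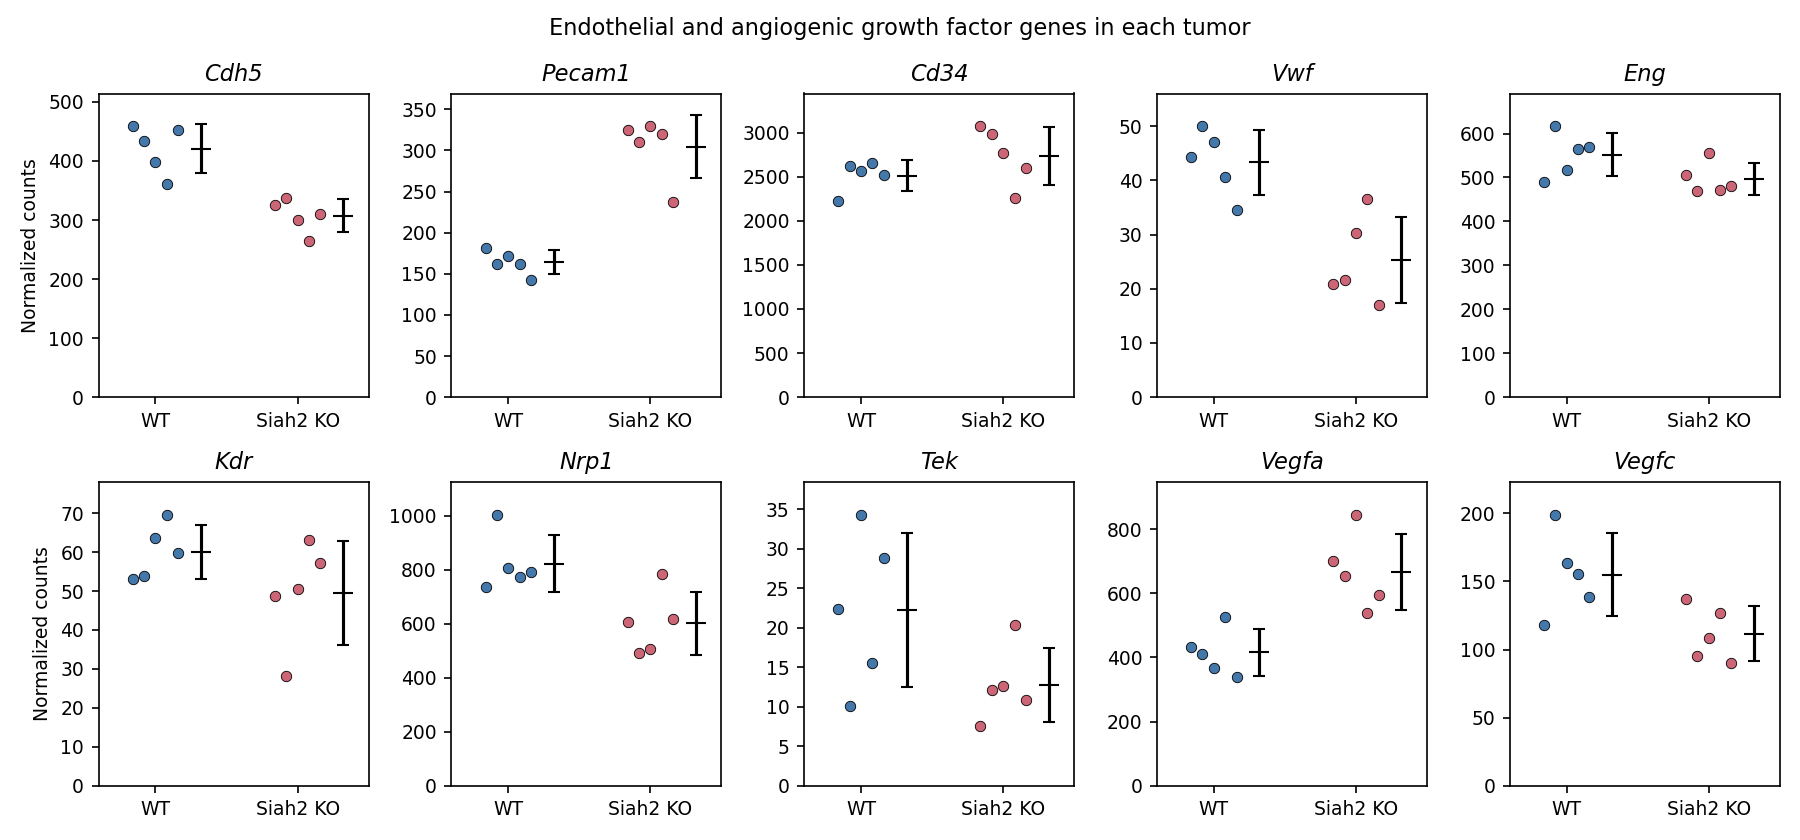
Normalized counts (vertical axes, from 0) of the 10 genes in each of 5 WT (blue) and 5 Siah2 KO (red) tumors, with the mean and SD of each group as a bar at its right. The 2 groups are separate for Cdh5, which was lower in KO tumors, and for Pecam1 and Vegfa, which were higher, and they overlap for the other 7 genes.

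The 2 junction genes moved in opposite directions. *Cdh5* encodes VE-cadherin, the adhesion protein of endothelial junctions and a gene largely restricted to endothelium. It had 459, 433, 399, 361 and 453 normalized counts in WT replicates 2 to 6 and 325, 337, 301, 264 and 310 in KO replicates 1, 2, 3, 5 and 6. Every KO tumor was thus below every WT tumor. The mean fell from 421 ± 40.9 (SD, n = 5) in WT to 307 ± 27.9 (SD, n = 5) in KO tumors. The log2 difference was -0.45 (95% interval -0.68 to -0.23, limma adjusted p = 0.0052, exact permutation p = 0.0079). *Pecam1* encodes CD31, a junction protein that leukocytes and platelets also carry. It had 181, 162, 172, 162 and 143 normalized counts in the WT tumors and 325, 310, 330, 320 and 238 in the KO tumors, in the same order of replicates. Every KO tumor was above every WT tumor, and KO replicate 6 was the lowest of its group. The mean was 304 ± 38.1 (SD, n = 5) against 164 ± 14.4 (SD, n = 5), a log2 difference of 0.88 (95% interval 0.63 to 1.14, limma adjusted p = 0.00039, exact permutation p = 0.0079).

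Leukocyte markers moved with *Pecam1*. All 5 of the list (*Ptprc*, *Cd53*, *Lcp1*, *Itgb2*, *Cd48*) were higher in KO tumors, against 31.3% of all probes, with a median log2 difference of 0.78. Their summed level was 3750 to 4544 normalized counts in WT and 5681 to 8568 in KO tumors. With median scaling *Cd48* did not pass (0.32, limma adjusted p = 0.055). The platelet markers were near background. *Itga2b* lay between 1.48 and 8.15 and *Ppbp* between 1.33 and 15.3 normalized counts over the 10 tumors, and 0 of these 2 passed. The part of leukocytes in the level of *Pecam1* was not tested.

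Among the other surface and secreted markers of endothelium, *Vwf* was lower and *Cd34* did not differ at the threshold. *Vwf* encodes von Willebrand factor, the clotting glycoprotein stored in endothelial granules. It had 44.4, 50.1, 47.1, 40.6 and 34.6 normalized counts in WT replicates 2 to 6 and 20.9, 21.7, 30.3, 36.5 and 17.1 in the KO tumors. Of the KO tumors 4 were below all WT tumors, and KO replicate 5 exceeded the lowest WT tumor. The log2 difference was -0.79 (95% interval -1.24 to -0.35, limma adjusted p = 0.0095, exact permutation p = 0.016). *Cd34*, a sialomucin of endothelium and of progenitor cells, ranged from 2220 to 2650 normalized counts in WT and from 2254 to 3075 in KO tumors. Its log2 difference was 0.12 with an interval of -0.12 to 0.35 (limma adjusted p = 0.40), and it turned to -0.15 with median scaling, to -0.20 with quantile normalization and to -0.05 with scaling to the 4 brightest positive controls.

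Of the 4 receptors and co-receptors, *Nrp1* was lower and *Kdr*, *Tek* and *Eng* did not pass. *Nrp1*, neuropilin-1, had 734, 1004, 805, 773 and 790 normalized counts in the WT tumors and 608, 492, 508, 784 and 616 in the KO tumors. KO replicate 5 lay inside the WT range and the other 4 KO tumors below it. The log2 difference was -0.46 (95% interval -0.78 to -0.14, limma adjusted p = 0.026, exact permutation p = 0.024). It missed the threshold without WT replicate 3 (adjusted p = 0.063), KO replicate 2 (0.057) or KO replicate 3 (0.064).

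*Nrp1* is also made by Tregs, macrophages and fibroblasts. The Treg marker *Foxp3* was lower in KO tumors (log2 difference -0.92, limma adjusted p = 0.018) and *Ikzf2* did not pass (-0.26, 0.10), with a summed level of 184 to 251 normalized counts in WT and 140 to 215 in KO tumors. Of 5 fibroblast markers 4 were lower, against 9.74% of all probes, and *Thy1*, which T cells carry too, was higher. Their summed level was 16865 to 21688 in WT and 10964 to 13076 in KO tumors. The call for *Col1a1* among them was lost without any 1 of WT replicates 3 and 4 and KO replicates 1, 2 and 3 (adjusted p between 0.053 and 0.060). Of 5 macrophage markers, *Mrc1* and *Cd163* were lower, *Cd68* was higher, and the summed levels overlapped, at 5500 to 7164 in WT and 5056 to 8224 in KO tumors. Their part in the level of *Nrp1* was not tested.

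*Kdr* encodes VEGFR2, the main signalling receptor for VEGF-A. It had 53.0, 54.0, 63.7, 69.7 and 59.7 normalized counts in the WT tumors and 48.6, 28.1, 50.5, 63.1 and 57.2 in the KO tumors, so that 3 KO tumors were below the WT range and 2 inside it. Its log2 difference of -0.31 had an interval from -0.76 to 0.13 (limma adjusted p = 0.24). *Tek*, which encodes Tie2, had 22.4, 10.1, 34.3, 15.5 and 28.8 normalized counts in WT and 7.55, 12.1, 12.6, 20.3 and 10.9 in KO tumors. Of the 10 genes it varied most within groups, with an SD of 0.58 on the log2 scale, while *Eng* varied least, with 0.12, and the median probe had 0.28. The log2 difference of *Tek* was -0.71 (95% interval -1.45 to 0.03, limma adjusted p = 0.11), and it passed without WT replicate 3 (-0.95, adjusted p = 0.032). With values under 20 raised to 20 it shrank to -0.28 (limma adjusted p = 0.17). *Tek* was near background, as in KO replicate 6 the highest negative control was 9.83. *Eng*, endoglin, a co-receptor for TGF-beta ligands, ranged from 491 to 617 normalized counts in WT and from 470 to 557 in KO tumors, a log2 difference of -0.15 (95% interval -0.35 to 0.06, limma adjusted p = 0.22).

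The 2 growth factors moved in opposite directions. *Vegfa*, the main growth factor of blood vessels, had 433, 411, 368, 528 and 338 normalized counts in WT replicates 2 to 6 and 700, 654, 846, 539 and 594 in the KO tumors. The groups did not overlap, although KO replicate 5 was only just above WT replicate 5. The mean rose from 416 ± 72.7 (SD, n = 5) in WT to 667 ± 117 (SD, n = 5) in KO tumors. The log2 difference was 0.68 (95% interval 0.34 to 1.02, limma adjusted p = 0.0053, exact permutation p = 0.0079). *Vegfc*, the growth factor of lymphatic vessels, had 118, 199, 164, 155 and 139 normalized counts in WT and 137, 95.3, 109, 127 and 90.2 in KO tumors. Of the KO tumors 3 were below all WT tumors. The log2 difference was -0.47 (95% interval -0.83 to -0.10, limma adjusted p = 0.044, exact permutation p = 0.032). It missed the threshold when any 1 of 7 tumors was left out, WT replicates 3, 4, 5 and 6 or KO replicates 2, 3 and 6, with adjusted p between 0.054 and 0.099.

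The sequences before the start sites of both growth factors and of the VEGF-A receptor and co-receptor are shown for comparison, although *Kdr* did not pass. They are the 250 bases before the most upstream start in RefSeq GRCm38.p6, read 5′ to 3′ on the strand of the gene. Capitals mark the GC box GGGCGG or its reverse complement CCGCCC, a motif bound by Sp1 family factors. Of 27025 promoters of this length, 33.0% hold at least 1 box and 16.8% at least 2. *Vegfa* is at chr17:46032378-46032627 (minus strand) with 2 boxes, *Vegfc* at chr8:54077282-54077531 (plus strand) with 2, *Kdr* at chr5:75978456-75978705 (minus strand) with 2 and *Nrp1* at chr8:128358823-128359072 (plus strand) with 1. The core bound by hypoxia-inducible factors, ACGTG or GCGTG on either strand, occurred 2 times in the window of *Kdr* and 1 time in that of *Nrp1*. It did not occur in those of *Vegfa* and *Vegfc*. At least 1 core was in 38.6% of all promoters and at least 2 in 16.8%. Sequence farther upstream or after the start was not searched, so a gene without a core here may hold one elsewhere. Entries were matched for 7 of the 10 genes, under 80%, so no share over the 10 genes is given. The matched genes not shown, *Tek*, *Eng* and *Cd34*, had 0 GC boxes and 0 hypoxia cores each. The 4 sequences shown are thus those of the 7 that hold a GC box.
Vegfa: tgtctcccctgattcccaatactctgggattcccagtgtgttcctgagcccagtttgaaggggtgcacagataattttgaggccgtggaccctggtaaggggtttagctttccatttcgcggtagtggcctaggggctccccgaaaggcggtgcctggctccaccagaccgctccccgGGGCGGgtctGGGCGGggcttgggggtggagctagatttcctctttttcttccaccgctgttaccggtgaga
Vegfc: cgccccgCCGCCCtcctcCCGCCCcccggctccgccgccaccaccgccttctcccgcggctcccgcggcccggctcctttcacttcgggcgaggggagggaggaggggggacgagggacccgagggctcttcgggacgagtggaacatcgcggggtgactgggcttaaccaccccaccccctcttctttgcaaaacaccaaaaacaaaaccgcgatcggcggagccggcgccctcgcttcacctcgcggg
Kdr: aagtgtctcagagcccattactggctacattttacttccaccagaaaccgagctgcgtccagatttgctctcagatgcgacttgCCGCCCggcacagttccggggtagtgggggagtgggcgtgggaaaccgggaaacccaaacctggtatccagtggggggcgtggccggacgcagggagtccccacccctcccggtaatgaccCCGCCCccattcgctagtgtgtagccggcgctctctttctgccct
Nrp1: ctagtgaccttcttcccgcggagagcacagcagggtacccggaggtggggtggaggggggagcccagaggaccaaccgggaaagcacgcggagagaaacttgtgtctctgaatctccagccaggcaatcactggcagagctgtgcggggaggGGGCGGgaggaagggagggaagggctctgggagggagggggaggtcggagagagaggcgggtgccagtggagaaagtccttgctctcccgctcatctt

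The scale of the tumors mattered for several of these genes. Of the 20 reference genes behind the deposited scale, 5 had a limma adjusted p under 0.05, against 41.0% of all probes. The scaling factors, read from the equal steps of low values, were 0.92 to 1.32 in WT and 1.03 to 1.60 in KO tumors. When the tumors were instead given equal medians over the endogenous probes (median scaling), the log2 difference of the median probe shifted by -0.25. On that scale 8 of the 10 genes passed, 1 higher and 7 lower, against 21.2% of all probes higher and 19.7% lower. *Pecam1* was still higher (log2 difference 0.62, limma adjusted p = 0.0022) and *Cdh5* lower (-0.72, 0.0037). *Vegfa* no longer passed (0.41, 0.058), nor did it with quantile normalization (0.32, 0.11). *Kdr* (-0.57, 0.028), *Tek* (-0.96, 0.037) and *Eng* (-0.41, 0.0061) passed as lower. With the reference gene factor removed and tumors scaled to the 6 positive control probes, 0 of the 10 genes passed in limma and 2 had an unadjusted p under 0.05. All 10 kept their direction on that scale, and 72 of the 770 probes passed.

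**Figure D2:**
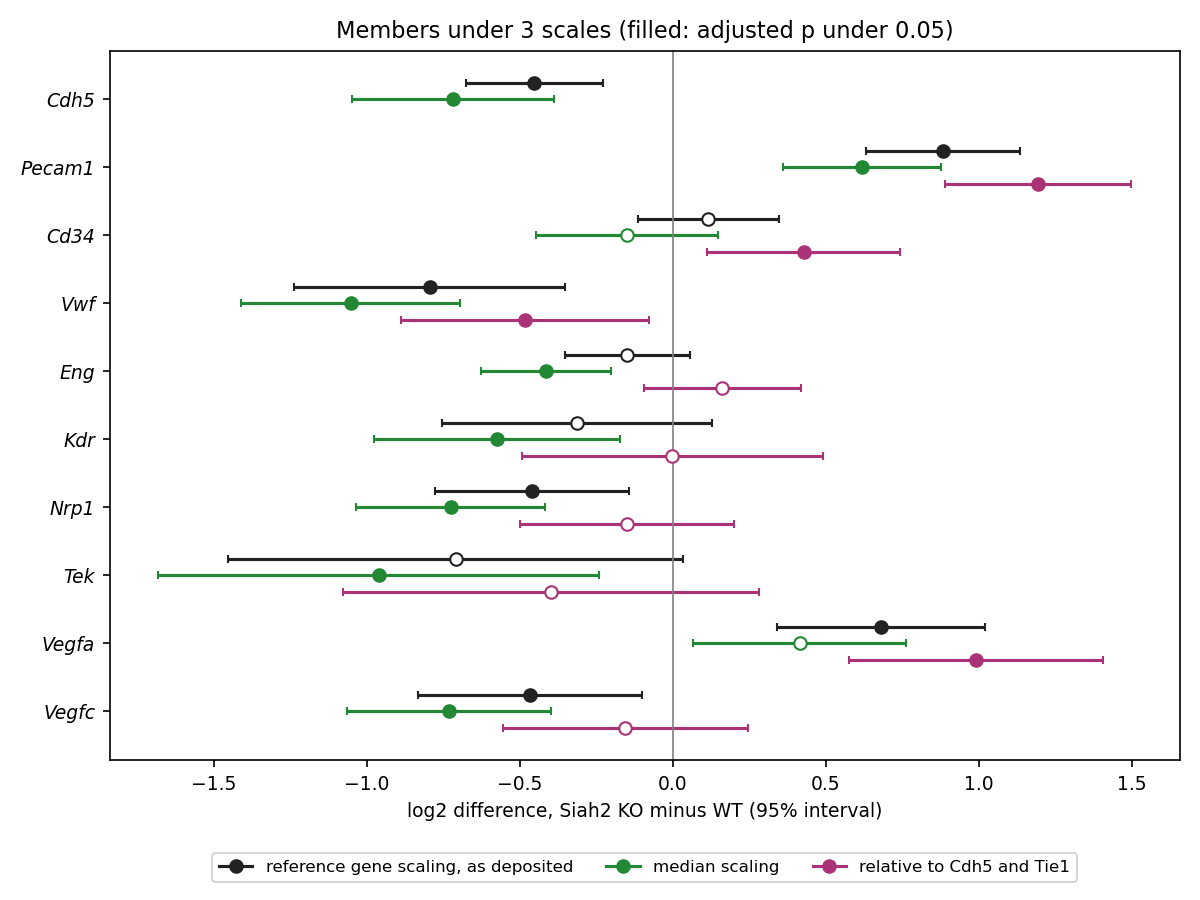
Log2 difference, Siah2 KO minus WT (horizontal axis), of the 10 genes with 95% intervals on 3 scales (black, as deposited; green, median scaling; purple, relative to Cdh5 and Tie1), where filled points have a limma adjusted p under 0.05. Pecam1 lies right of 0 on all 3 scales (0.88, 0.62 and 1.19) and Vwf left of it (-0.79, -1.05 and -0.48), while Cd34, Eng and Kdr move with the scale.

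To set the genes against a pair of endothelial genes within each tumor, the mean log2 value of *Cdh5* and *Tie1*, an orphan receptor largely restricted to endothelium, was subtracted from every other probe. The endothelial markers did not move as one. Of 6 (*Cdh5*, *Tie1*, *Kdr*, *Tek*, *Icam2*, *Pecam1*), 2 were higher in KO tumors on the deposited scale, *Icam2* and *Pecam1*, only *Cdh5* was lower, and 3 did not pass. With median scaling *Tie1* passed as lower (-0.43, limma adjusted p = 0.017), as did *Kdr* and *Tek*, while *Icam2* and *Pecam1* stayed higher. *Tie1* was also lower with quantile normalization (-0.41, 0.049). The pair itself was lower in KO tumors by a log2 difference of -0.31 (exact permutation p = 0.0079), and *Tie1* alone did not pass (-0.17, limma adjusted p = 0.42). Subtraction of the pair thus raised every difference by 0.31. Relative to the pair, 60.2% of 768 probes were higher and 4.69% lower, and the median probe was higher by 0.55. Of the other 9 genes 3 were higher and 1 was lower. *Pecam1* was higher by 1.19 (standard error 0.14, limma adjusted p = 8.2e-05) and *Vegfa* by 0.99 (standard error 0.19, 0.0012). Neither gene overlapped between groups, and both had an exact permutation p of 0.0079. That outcome was fixed beforehand, as both genes were higher and the pair lower in KO tumors without overlap, so it adds no support. *Cd34* was higher by 0.43 (limma adjusted p = 0.022) and missed the threshold without WT replicate 2 (0.39, 0.053) and with quantile normalization (0.40, 0.053). *Vwf* fell by 0.48 (limma adjusted p = 0.037), a call lost when any 1 of 7 tumors was left out (all but WT replicate 6, KO replicate 3 and KO replicate 5, with adjusted p between 0.066 and 0.084) and with a pseudocount of 10 (0.059), an equal variance test (0.053) or an intensity trend (0.079). The other 5 genes did not pass. The value was -0.0023 for *Kdr*, with an interval of -0.49 to 0.49, 0.16 for *Eng* (-0.09 to 0.42), -0.15 for *Nrp1* (-0.50 to 0.20), -0.16 for *Vegfc* (-0.56 to 0.24) and -0.40 for *Tek* (-1.08 to 0.28). The balance turned with *Tie1* and *Icam2* subtracted in place of the pair, where 1 of the 9 genes was higher and 4 were lower. *Icam2* was itself higher in KO tumors, so this subtraction lowered every difference. The shares of all probes on that scale are not given, so these counts are no result about the 9 genes. *Pecam1* was higher (0.65, limma adjusted p = 0.021), and *Vwf* (-1.03, 0.00080), *Tek* (-0.94, 0.023), *Nrp1* (-0.69, 0.013) and *Vegfc* (-0.70, 0.024) were lower. *Vegfa* did not pass (0.45, 0.18), *Eng* turned to -0.38 and *Cd34* to -0.12.

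Ratios of genes within a tumor need no scaling between tumors, and these pairs were chosen after their values were seen, so they are given with no test. The ratio of *Vegfa* to *Vegfc* was 3.67, 2.06, 2.25, 3.39 and 2.44 in WT replicates 2 to 6 and 5.10, 6.86, 7.79, 4.25 and 6.59 in the KO tumors. That of *Vegfa* to *Kdr* lay between 5.67 and 8.17 in WT and between 8.54 and 23.3 in KO tumors. That of *Pecam1* to *Cdh5* lay between 0.315 and 0.448 in WT and between 0.767 and 1.21 in KO tumors. None of these ratios overlapped between groups. For *Pecam1* to *Cdh5* this had to be so, as *Pecam1* was higher and *Cdh5* lower in KO tumors without overlap. How often ratios of other probe pairs separate was not measured. As each probe has its own efficiency, the ratios compare tumors and do not give the relative abundance of the 2 RNAs.

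**Figure D3:**
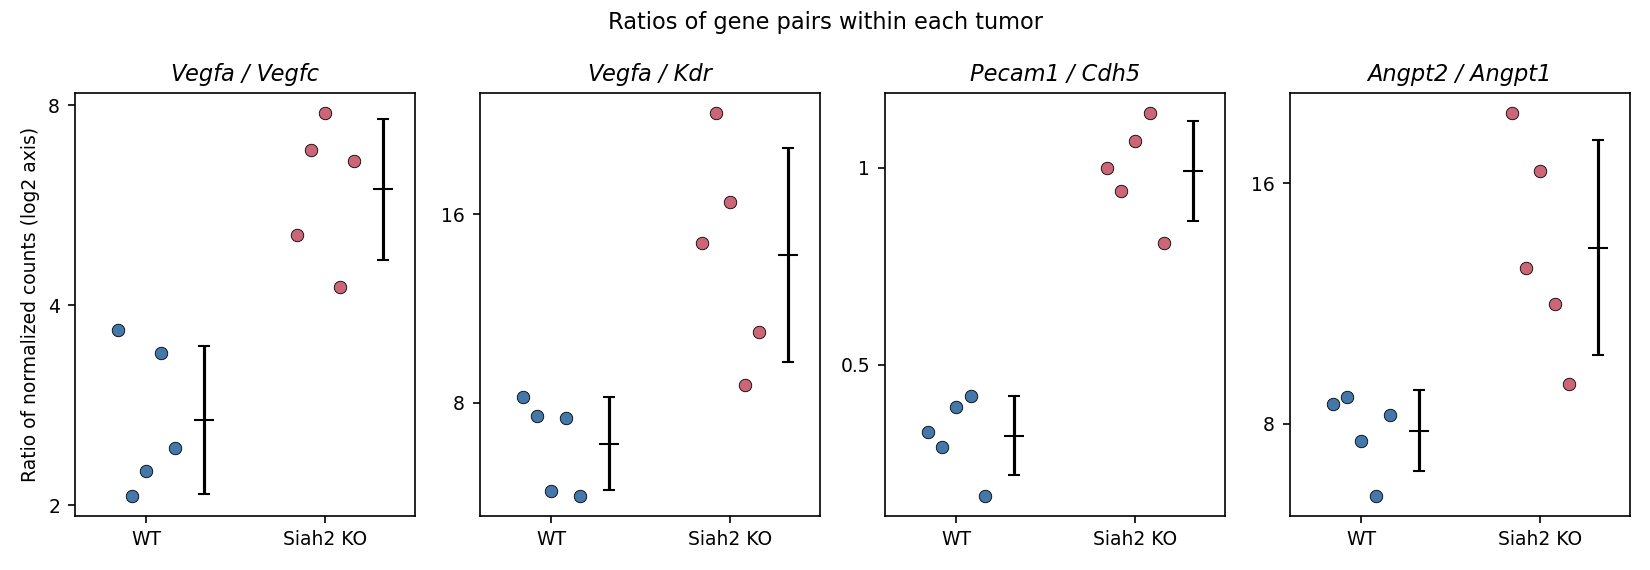
Ratios of normalized counts of 4 gene pairs (vertical log2 axes) in each of 5 WT (blue) and 5 Siah2 KO (red) tumors, with the mean and SD of the log2 ratio as a bar. Every KO tumor lies above every WT tumor in all 4 pairs, which were chosen after their values were seen.

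Within groups the 10 genes did not rise and fall as one. After subtraction of the group means, Pearson's r over the 10 tumors for the 45 pairs ran from -0.71, for *Cdh5* and *Kdr*, to 0.68, for *Pecam1* and *Vwf*, with a median of 0.020. There were 4 pairs above 0.5 and 6 below -0.5. The 5 probes most like *Cdh5*, among 601 whose mean reached 20 normalized counts, were *Mfge8* (r = 0.76), *Nefl* (0.71), *Cd9* (0.70), *Lbp* (0.70) and *Msln* (0.64). Those most like *Vegfa* were *Fn1* (0.86), *Gpi1* (0.86), *Mif* (0.84), *Map2k1* (0.81) and *Cd99* (0.80). These values describe 10 tumors that share one panel and one scaling per tumor, and no p is given.

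The panel holds 35 further genes of the surrounding pathways in 7 lists, of which 6 were higher and 10 lower in KO tumors. Over all probes 31.3% were higher and 9.74% lower, or 21.2% and 19.7% with median scaling. The median log2 difference was -0.17 over the 35 genes and 0.24 over all probes. Of 8 other endothelial genes 2 were higher and 1 was lower, with a median of -0.19. *Icam2*, an adhesion protein of endothelium and leukocytes, was higher (0.63, limma adjusted p = 0.014), as was *Sele* (0.75, 0.0022), the selectin of activated endothelium that binds leukocytes. *Lyve1*, a receptor of lymphatic endothelium and of some macrophages, was lower (-2.76, 0.00025). Its KO tumors had 8.66 to 15.1 normalized counts, 1 of them below its highest negative control, and with values under 20 raised to 20 the difference was -2.03 (0.0018). Of the 5 macrophage markers, *Mrc1* and *Cd163* were lower too, *Cd68* was higher, and *Csf1r* and *Emr1* did not pass. The part of macrophages in the level of *Lyve1* was not tested. Of 4 adhesion genes induced by cytokines, *Sele* was higher and *Vcam1* lower (-0.39, 0.043), with a median of 0.15, and the call for *Vcam1* was lost when any 1 tumor but KO replicate 5 was left out (adjusted p between 0.052 and 0.090). With median scaling *Sele* did not pass (0.49, 0.069).

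Among 6 angiogenic regulators 2 were higher and 1 was lower, with a median log2 difference of 0.0099. Of the ligands of Tie2, *Angpt2* is the one released by activated endothelium. It had 198, 172, 156, 212 and 213 normalized counts in WT and 300, 252, 293, 263 and 264 in KO tumors, without overlap. Its log2 difference was 0.53 (limma adjusted p = 0.0037), and it missed the threshold with median scaling (0.27, 0.096). *Angpt1*, the ligand made by mural cells, did not pass (-0.21, limma adjusted p = 0.39), and the difference between the 2 ligands was not tested. *Thbs1*, thrombospondin-1, an inhibitor of angiogenesis, was higher at 1116 ± 272 against 357 ± 64.2 normalized counts (SD, n = 5 in each; log2 difference 1.63, limma adjusted p = 0.00024). *Pdgfc*, a ligand of PDGF receptors, was lower (-0.80, 0.00059), and *Dll4*, the Notch ligand of sprouting tips, had -0.015 (0.96).

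Of 4 oxygen sensing genes 1 was higher, with a median log2 difference of 0.016. *Hif1a*, the regulated subunit of the factor that drives *Vegfa* in hypoxia, had 1695 to 2029 normalized counts in WT and 2351 to 3346 in KO tumors (0.63, limma adjusted p = 0.0018). *Vhl*, which marks that subunit for degradation, did not pass at 0.04 (0.74), and it turned to -0.22 with median scaling. The 5 genes of TGF-beta ligands and receptors, the pathway of endoglin, had a median of -0.34. Among them 0 were higher and 3 were lower, against 9.74% of all probes lower. These were *Tgfb3* (-1.38, 0.00018), *Tgfb2* (-1.08, 0.0069) and *Tgfbr2* (-0.34, 0.0045).

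All 3 genes of mural cells and vascular basement membrane were lower, against 9.74% of all probes, with a median log2 difference of -0.87. *Pdgfrb*, the PDGF receptor of pericytes, had 94.9 to 129 normalized counts in WT and 48.9 to 60.2 in KO tumors (log2 difference -0.996, limma adjusted p = 0.00018). *Cspg4*, or NG2, was lower (-0.87, 0.0089). *Col4a1*, a basement membrane collagen, was lower (-0.42, 0.027), and missed the threshold without WT replicate 3 (0.068), WT replicate 4 (0.063), KO replicate 2 (0.060) or KO replicate 6 (0.052). Fibroblasts also make *Pdgfrb* and melanoma cells *Cspg4*. *Pdgfrb* is itself 1 of the 4 fibroblast markers that were lower, beside *Col1a1*, *Col3a1* and *Fap*. *Cspg4* is itself 1 of 3 melanoma markers, whose summed level, most of it *Cspg4*, was 438 to 594 normalized counts in WT and 224 to 405 in KO tumors. Of the other melanoma markers, *Mcam* did not pass (-0.17, 0.36), and *S100b* (-2.39, 0.00055) was at or below the highest negative control in 5 of 5 KO tumors and did not pass with a floor of 20 (-0.08, 0.49). The part of these cells in the 3 genes was not tested. Of 6 integrins of endothelium, *Itgb3* was higher (0.69, limma adjusted p = 0.0039) and *Itga1* lower (-0.49, 0.019), with a median of -0.10.

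**Figure D4:**
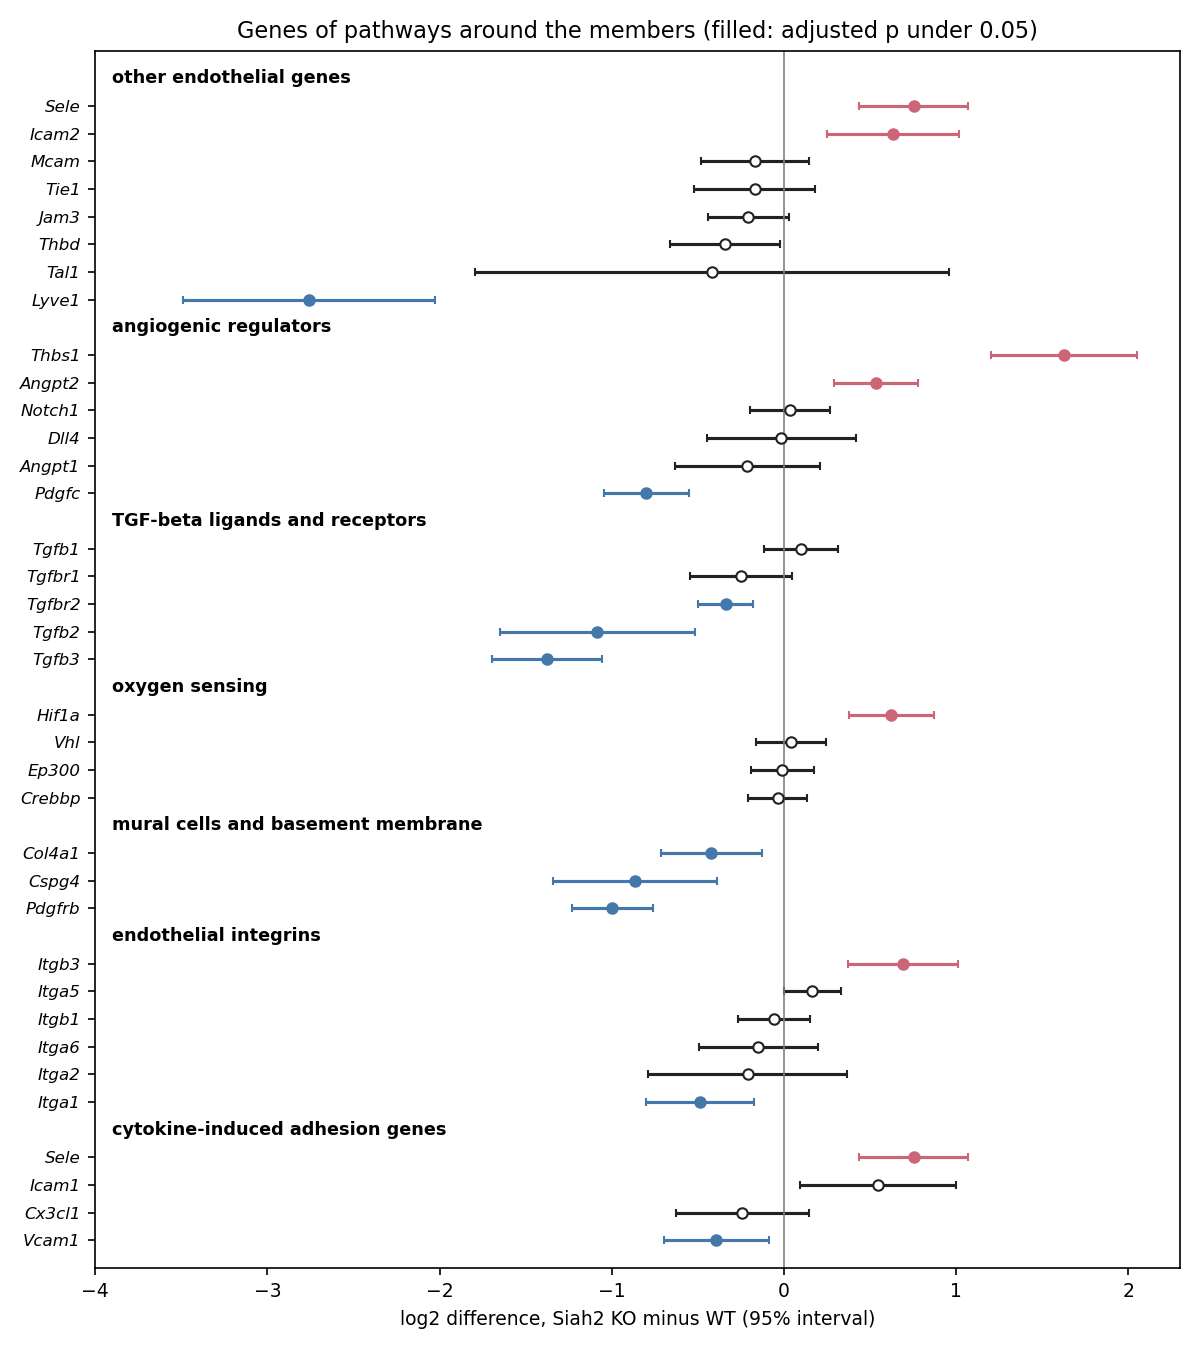
Log2 difference, Siah2 KO minus WT (horizontal axis), with 95% intervals for the 35 further genes by list, where filled points have a limma adjusted p under 0.05 (red higher, blue lower in KO tumors). Thbs1 (1.63) and Lyve1 (-2.76) lie farthest from 0, and Sele stands in 2 lists.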

How the data were processed

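RNA from 5 WT and 5 Siah2 KO tumors was hybridized to the NanoString panel, and the signal that the authors deposited is a normalized count per probe. Per the methods, nSolver was used and counts were scaled to 20 reference genes. The low values rose in equal steps from an offset, so background had been subtracted before scaling. They are not whole counts, and no count model was used.

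The groups were compared on log2(value + 1) over 750 endogenous genes and 20 reference genes in limma 3.58.1 (lmFit, eBayes; R 4.3.3), with Benjamini-Hochberg adjustment over 770 probes, two-sided, at an adjusted p under 0.05. The exact permutation test of mean log2 values was two-sided. Named are the 10 genes, genes of the related lists that passed or act next to one of the 10, markers of other cell types, and the 5 probes most like *Cdh5* or *Vegfa*. The 10 genes and the lists were chosen with earlier results of these data known. Alternatives were other scalings, a filter and a floor at 20, a pseudocount of 10, an equal variance test, an intensity trend, the replicate number as a block, and leaving out each tumor. Promoters came from RefSeq GRCm38.p6. Plots were made with matplotlib 3.10.9 in Python 3.11.15.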

Additional observations from a re-analysis of the deposited data

Results flagged for a closer look

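In groups of 5 tumors, 6 single values lay far from the rest of their group, by a gap to the nearest tumor that exceeded Dixon's 95% limit on the scale of normalized counts or of log2 values. Of 88 groups checked (44 genes), chance gives about 4.4 such values on 1 scale, or 1 in 20. It gives more here, as either of the 2 scales could flag a value. *Pecam1* was 238 normalized counts in KO replicate 6 (237.53), and the next tumor of its group had 309.79. *Nrp1* was 1003.93 in WT replicate 3, next to 805.03. *Cd34* was 2220.46 in WT replicate 2, next to 2518.8. *Vhl* was 61.91 in KO replicate 1, next to 77.83. *Col1a1* was 2976.98 and *Foxp3* 46.87 in KO replicate 5, next to 2176.38 and 27.35.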

How the results depend on the processing

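Of the 10 genes, 6 passed on the deposited scale, 0 with scaling to the 6 positive controls, 1 with scaling to the 4 brightest of them (chosen after seeing the data) and 3 in the 8 tumors that share a replicate number with a tumor of the other group. With the replicate block, 4 passed in those 8 tumors. Same-numbered tumors deviated together at r = 0.035, 0.050, 0.17 and 0.35, and 8 of 8 correlated best with their own number. Whether the numbers pair the tumors was not tested, and the main fit did not use them. Under the block, *Vegfa* (0.62, adjusted p = 0.064) and *Nrp1* (-0.47, 0.12) did not pass. Leaving out each tumor gave 4 to 6 of the 10 genes. Over all 770 probes, 316 passed, 72 with the 6 positive controls, 95 with the 4 brightest, 235 with the block, 232 in the same 8 tumors without it, and 268 to 334 with 1 tumor left out. Relative to *Cdh5* and *Tie1*, 4 of 9 genes passed, 2 with quantile normalization, 2 with the block, 2 in the same 8 tumors, 5 with *Tie1* and *Icam2* subtracted (1 higher and 4 lower, against 3 and 1), and 2 to 4 with 1 tumor left out. For these relative counts, shares over all probes are given only for the main fit. The calls for *Pecam1* and *Cdh5* were lost only with the 2 positive control scalings, and those for *Vwf* with the 6 positive controls (-0.89, 0.19) and in the 8 tumors (-0.71, 0.057). *Vegfc* also missed the threshold with a floor of 20 (0.052) and with the equal variance test (0.059). The sign turned for *Cd34* (median scaling -0.15, quantile -0.20, 4 brightest -0.046) and *Vhl* (-0.22, -0.25 and -0.12, and -0.064 with the 6 positive controls). Relative to the pair it turned for *Kdr* (quantile 0.055, 6 positive controls 0.0025, 4 brightest 0.0028, pseudocount of 10 0.030, and -0.086 to 0.20 with 1 tumor left out), for *Tek* with a floor of 20 (0.033), and with *Tie1* and *Icam2* subtracted for *Eng* (-0.38) and *Cd34* (-0.12). For *Dll4* it ran from -0.14 to 0.10 with 1 tumor left out. The causes were not tested. With 5 tumors per group, the 95% intervals of *Kdr* (-0.76 to 0.13) and *Tek* (-1.45 to 0.03) limit what could be detected.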
